A study of Danio rerio with 14 samples.

Results

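Zebrafish embryos kept in retinoic acid (RA) were compared at 6 and at 4 hours post fertilization (hpf), the stages at which gastrulation begins and at which the embryo is still a blastula. The comparison rests on the 2 arrays labelled RA 6 hpf and the 2 labelled RA 4 hpf, which are 4 of the 14 arrays of the series, and they were taken by their labels alone. All 14 are Affymetrix zebrafish GeneChip arrays. The 6 embryo groups, RA and untreated at 4, 6 and 9 hpf, hold total RNA of whole embryos and have 2 arrays each, and the remaining 2 arrays hold the zebrafish fibroblastic line ZF4. According to the methods of the study the embryos were wild type, of the EK strain, and RA was added at the 2-cell stage and stayed until harvest, so the RA 6 hpf embryos differ from the RA 4 hpf embryos both in stage and in time spent in RA. For this array platform the methods mention untreated samples of 9 hpf and of no other stage; group membership here comes from the labels. The untreated 6 hpf and untreated 4 hpf groups, with 2 arrays each, show the same interval without RA. Nothing in the labels tells if replicate arrays come from different clutches, so p-values measure only the spread between these samples, which may be technical.

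RA is made from vitamin A by aldehyde dehydrogenases of the Aldh1a family and removed by hydroxylases of the Cyp26 family. It binds nuclear receptors of the Rar and Rxr families that sit on DNA near their target genes, among them hox genes, which give cells their position along the body axis, and cyp26a1, through which RA limits its own level. In the interval studied the zebrafish embryo also clears RNA that the mother placed in the egg. It reads its own genome at full strength and lays down its germ layers. Its outer epithelium is called the enveloping layer.

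Values are deposited log2 expression values per probe set, and a change is the RA 6 hpf mean minus the RA 4 hpf mean on that scale, with its standard error (SE) from the model. Control probe sets that match no zebrafish gene set a background level of 5.302 (the 95th percentile of their values). Where both arrays of one stage lay at or below it and both of the other above, the fold is given as a lower bound against that level ("at least"), and a gene at or below that level at both stages gets none. Array medians lay between 6.13 and 6.32 over the 8 arrays of 4 and 6 hpf. Replicates correlated at 0.948 at RA 6 hpf and at 0.946 at RA 4 hpf, and RA 4 hpf array 1 lay nearer to untreated 4 hpf array 1 (0.955) than to its own replicate. For probe sets with a mean above 7 the median difference between replicates was 0.193 at RA 6 hpf and 0.253 at RA 4 hpf, and at or below 7 it was 0.577 and 0.625 at those stages. Markers of the stages were present: ccna1, the maternal cyclin A, was at 10.32 and 10.89 on the RA 6 hpf arrays and at 12.66 and 12.50 on the RA 4 hpf arrays, and tbxta, the notochord and tailbud factor Brachyury, was at 10.65 and 10.71 on the RA 6 hpf arrays and at 4.19 and 6.40 on the RA 4 hpf arrays.

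Between 4 and 6 hpf RA-treated embryos gained transcripts of epithelium, germ layers and hox genes and lost transcripts of the oocyte. limma called 3291 of 15502 probe sets higher at RA 6 hpf, 21.2%, and 2986 lower, 19.3% (adjusted p under 0.05). The 2 arrays of each stage did not overlap for any called probe set. Of the probe sets called higher, 1640 were above background on all 4 arrays, 796 were above it at RA 6 hpf only, 430 on a part of the arrays of a stage, and 425 lay at or below it at both stages. Of those called lower, 2152 were above background on all 4 arrays, 483 at RA 4 hpf only, 269 on a part of the arrays of a stage, and 82 at neither stage. The tag controls that set the background level had medians of 3.56 and 3.39 on the RA 6 hpf arrays and 2.66 and 2.69 on the RA 4 hpf arrays. That shift runs the same way as the 425 and 82 calls among probe sets at or below background, and its part in them was not tested. Among the probe sets measured on all 4 arrays the median size of a change was 1.14 for those called higher and 1.50 for those called lower. A change of more than 2-fold was reached by 967 of them upward and 1701 downward, and one of more than 16-fold by 18 upward and 17 downward.

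**Figure D1:**
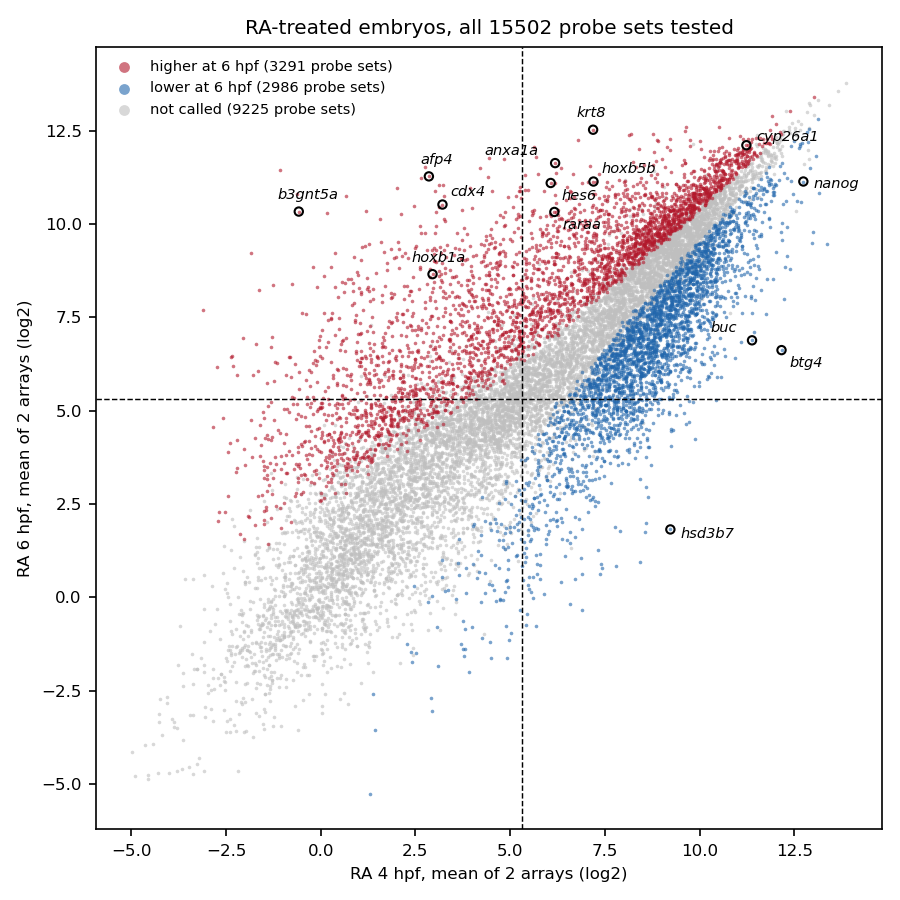
Mean log2 expression at RA 4 hpf (x axis) and RA 6 hpf (y axis), 2 arrays each, with 1 point per probe set, 3291 called higher in red, 2986 called lower in blue and the others grey. Dashed lines mark the background level of 5.302; b3gnt5a, cdx4 and afp4 stand above it at RA 6 hpf alone, hsd3b7 at RA 4 hpf alone, and btg4 and buc lie farthest below the diagonal among the genes marked at both stages.

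The largest increases among the genes measured at both stages, with code names passed over, were of the epithelial genes anxa1a and krt8. anxa1a, an annexin of the enveloping layer, was at 11.53 and 11.72 on the RA 6 hpf arrays and at 5.35 and 7.03 on the RA 4 hpf arrays, 43.4-fold higher (change 5.44 ± 1.15 SE, limma adjusted p = 0.00383). The keratin gene krt8 was at 12.49 and 12.56 at RA 6 hpf and at 5.98 and 8.40 at RA 4 hpf, 40.3-fold higher (adjusted p = 0.00295). perp, which encodes a membrane protein of desmosomes, was at 11.09 and 11.12 at RA 6 hpf and at 5.34 and 7.01 at RA 4 hpf, 30.5-fold higher. Of the 2 probe sets of perp 1 was called higher. In each of these 3 genes the RA 6 hpf arrays lay close together and RA 4 hpf array 2 stood above array 1. The stages did not overlap, as for every called probe set. Also among the 10 largest rises were apoc1, an apolipoprotein gene of the yolk syncytial layer (35.5-fold), hes6, a Hairy/E(spl) family gene (32.5-fold), nop2, which encodes a ribosomal RNA methyltransferase (19.2-fold), lye (19-fold), the RA receptor gene raraa (17.8-fold), tp53inp2a (17.2-fold) and marcksa (16.9-fold). lye is the least certain of them: it was at 12.25 and 12.50 at RA 6 hpf and at 6.01 and 10.25 at RA 4 hpf (adjusted p = 0.0371).

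For genes that crossed the background level upward the size of the change can only be bounded from below. afp4, at 10.98 and 11.56 at RA 6 hpf and at 1.49 and 4.22 at RA 4 hpf, rose at least 62.7-fold. krt17, a keratin of the periderm, was at 10.79 and 10.72 at RA 6 hpf and at 0.56 and 0.76 at RA 4 hpf, at least 43.8-fold higher (change 10.09 ± 0.26 SE, limma adjusted p = 2.98e-08). cdx4, a caudal-type homeobox gene that acts upstream of hox genes in the tailbud, was at 10.71 and 10.32 at RA 6 hpf and at 3.85 and 2.58 at RA 4 hpf, at least 37.2-fold higher. All 4 arrays of these genes fall on the side of their stage with no overlap, as for every called probe set. The nuclear receptor gene nr0b2a (at least 50.3-fold), the ventral homeobox gene eve1 (at least 36.3-fold), the keratin gene krt99 (at least 33.6-fold), lcp1, which encodes the actin-bundling protein plastin (at least 32.8-fold), the glycosyltransferase gene b3gnt5a (at least 32.6-fold), and cyp27c1, which encodes an enzyme that desaturates vitamin A (at least 30.9-fold), were called higher too. So were znf185 (at least 34.9-fold), tagln2 (at least 28.4-fold) and gfus.2 (at least 24.8-fold).

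The 10 largest falls among genes measured at both stages, with code names passed over, were all over 16-fold. They included several genes known from the oocyte and egg. The largest was that of btg4. This gene, which directs the clearance of maternal RNA through the deadenylase complex, was at 5.85 and 7.39 on the RA 6 hpf arrays and at 12.40 and 11.92 on the RA 4 hpf arrays, 46.6-fold lower (change -5.54 ± 0.57 SE, limma adjusted p = 7.37e-05). buc, the organizer of the germ plasm, was at 6.63 and 7.13 at RA 6 hpf and at 11.74 and 11.03 at RA 4 hpf, 22.7-fold lower. mos, the kinase that holds the egg in meiosis, was at 5.45 and 6.41 at RA 6 hpf and at 10.61 and 9.81 at RA 4 hpf, 19.4-fold lower. In all 3 the level on RA 6 hpf array 2 was above that on array 1, while on RA 4 hpf array 2 it was below array 1. The other falls among the 10 were of lipg, an endothelial lipase gene (23.4-fold and second in size), the phosphoinositide 3-kinase regulatory gene pik3r3b (20.2-fold), the Bcl-2 family gene bokb (19.6-fold), the oocyte histone-mRNA binding gene slbp2 (19-fold), the oocyte importin gene kpna7 (18.7-fold), 42sp43 (18.6-fold) and the kinase gene tesk1b (18.1-fold). Genes that fell to background included rasef2 (at least 24-fold), cdca9 (at least 21.5-fold), trim35-29 (at least 20.1-fold), arhgap10 (at least 16.7-fold), ppp1r3da (at least 16.1-fold) and hsd3b7, a steroid dehydrogenase gene at 0.30 and 3.33 at RA 6 hpf and at 9.59 and 8.86 at RA 4 hpf.

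Anterior and middle hox genes rose in the RA-treated embryos over this interval. Of 42 hox genes measured, 14 were called higher at RA 6 hpf (33.3%) and 0 lower, where over all 8793 genes, each taken by 1 probe set, 20.2% were called higher and 24.5% lower. This gene list and those below were chosen with earlier results of these data known. The difference between the stage changes with RA and without passed the adjusted threshold for 0 hox genes, and an unadjusted p under 0.05 was reached by 15 of them, where over all probe sets it was reached by 819, 5.28%. The median change of the list was 1.07, against -0.03 over all genes, and with values at or below background raised to that level both medians were 0. On both RA 6 hpf arrays 15 hox genes stood above background, on both RA 4 hpf arrays 2 did (hoxb5b and hoxc11a), and 23 were at or below background at both stages. In untreated embryos 1 stood above background on both arrays at 6 hpf and 1 at 4 hpf, and 2 were called higher and 3 lower. The background level is the same for all arrays. Tag control medians, however, were 3.56 and 3.39 at RA 6 hpf and 1.83 and 1.94 at untreated 6 hpf. The part of that shift in these counts was not tested.

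hoxb5b was the hox gene already above background at 4 hpf among those that rose. It was at 11.12 and 11.15 on the RA 6 hpf arrays and at 5.61 and 8.78 on the RA 4 hpf arrays, 15.3-fold higher (change 3.93 ± 1.00 SE, limma adjusted p = 0.01), while all 4 untreated arrays were at or below background. hoxa4a was at 10.36 and 10.21 at RA 6 hpf and at 4.30 and 6.89 at RA 4 hpf (change 4.69 ± 0.82, adjusted p = 0.00129). hoxb3a was at 10.31 and 10.19 at RA 6 hpf and at 4.28 and 7.85 at RA 4 hpf (change 4.19 ± 0.91). In these genes the RA 6 hpf arrays were alike and the RA 4 hpf arrays differed by 2.58 to 3.57, with array 2 the higher. Both RA 4 hpf arrays lay below both RA 6 hpf arrays, as for every probe set called higher. hoxb5a (9.39 and 9.55 at RA 6 hpf, 3.48 and 5.40 at RA 4 hpf, change 5.03 ± 0.63), hoxa3a (9.42 and 9.34, against 4.81 and 6.34, change 3.80 ± 0.50) and hoxa5a (8.77 and 8.89, against 0.99 and 5.56, change 5.56 ± 1.28) had the same shape. Each of these 5, hoxa3a, hoxa4a, hoxa5a, hoxb3a and hoxb5a, stood above background on RA 4 hpf array 2 alone, so the size of its change is uncertain.

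Several called hox genes were at or below background on both RA 4 hpf arrays, among them hoxb1a, a paralog group 1 gene of the hindbrain. It was at 9.04 and 8.26 on the RA 6 hpf arrays and at 3.28 and 2.62 on the RA 4 hpf arrays, at least 10.2-fold higher (change 5.70 ± 0.48 SE, adjusted p = 3.03e-05), so both RA 4 hpf arrays were at or below background and array 2 was the lower. hoxc5a was at 6.59 and 7.22 at RA 6 hpf and at -0.76 and 0.66 at RA 4 hpf, at least 3.03-fold higher (adjusted p = 0.000134). hoxc4a was at 5.78 and 6.37 at RA 6 hpf and at 1.33 and 1.49 at RA 4 hpf, at least 1.71-fold higher. The bounds of the last pair are small since their RA 6 hpf levels lay near background. The other hox genes that rose above it were hoxb6b (at least 5.30-fold), hoxc1a (at least 4.33-fold), hoxb4a (at least 3.49-fold) and hoxd4a (at least 1.30-fold), and hoxc6a, at 4.33 and 5.42 at RA 6 hpf and 1.40 and 1.27 at RA 4 hpf, was above background on 1 of the 4 arrays. The 14 genes come from paralog groups 1, 3, 4, 5 and 6, and none from group 2 or groups 7 to 13. In that posterior part of the clusters hoxc11a was at 5.30 and 4.51 at RA 6 hpf and at 6.02 and 6.08 at RA 4 hpf (adjusted p = 0.361). hoxc3a, at 5.90 and 5.61 at RA 6 hpf and at 1.97 and 4.21 at RA 4 hpf, missed the threshold (adjusted p = 0.089). Without RA 4 hpf array 1 or RA 6 hpf array 1 10 hox genes were called higher, without RA 6 hpf array 2 11 and without RA 4 hpf array 2 16. hoxb5b, hoxb6b, hoxc1a and hoxd4a lost the threshold without RA 4 hpf array 1 or either RA 6 hpf array, and hoxb4a did so without RA 4 hpf array 1.

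**Figure D2:**
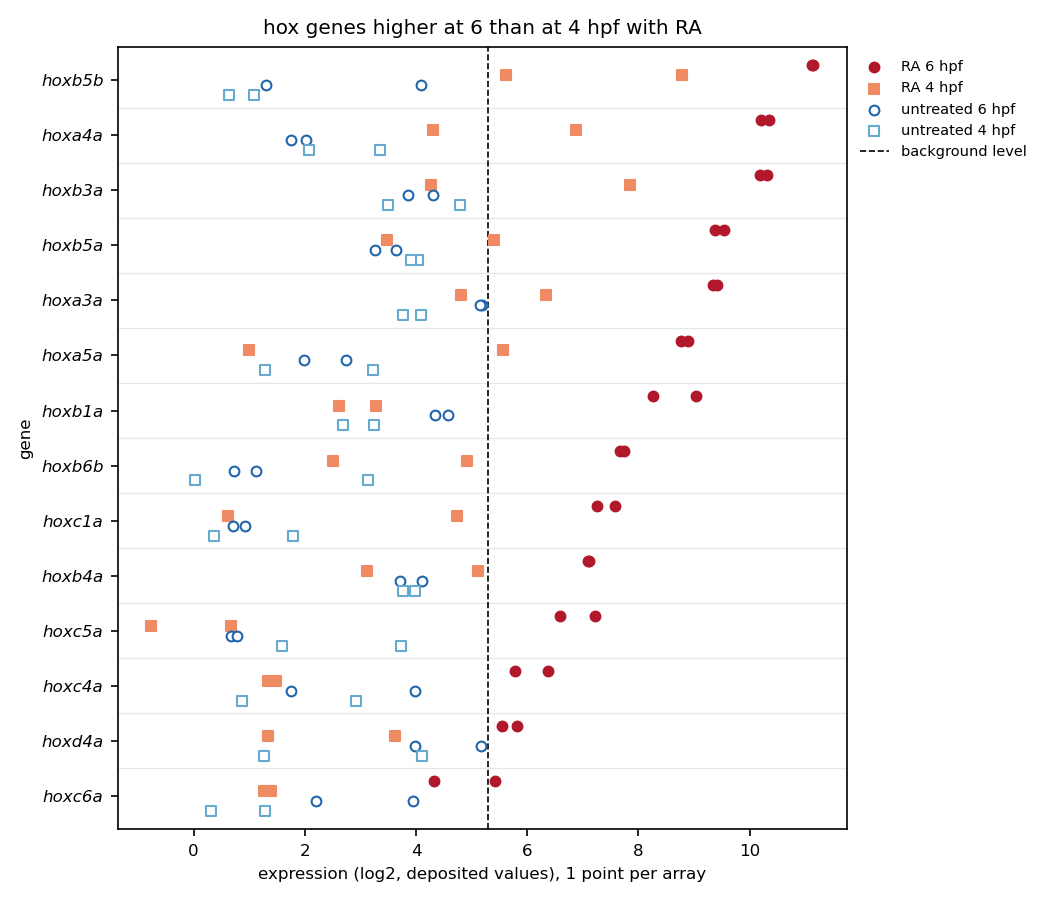
Log2 expression of the 14 hox genes called higher at RA 6 hpf, 1 point per array, with RA 6 hpf and RA 4 hpf filled and untreated 6 hpf and untreated 4 hpf open. The RA 6 hpf points lie to the right of both RA 4 hpf points in all 14 genes, as for every probe set called higher. In hoxb5b, hoxa4a, hoxb3a, hoxb5a, hoxa3a and hoxa5a RA 4 hpf array 2 is to the right of the background level of 5.302.

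Genes that make, bind and remove RA changed in both directions. Of 23 measured genes of RA metabolism and RA receptors 10 were called higher (43.5%) and 3 lower (13.0%). The shares over all genes were 20.2% and 24.5%. In untreated embryos 7 genes of the list were called higher and 4 lower. Among the receptors, raraa was at 10.37 and 10.27 on the RA 6 hpf arrays and at 5.49 and 6.84 on the RA 4 hpf arrays, 17.8-fold higher (change 4.15 ± 0.41 SE, adjusted p = 5.91e-05), while untreated embryos had 8.36 and 7.80 at 6 hpf and 5.09 and 5.85 at 4 hpf. nr2f5, a COUP-TF orphan nuclear receptor gene, was at 8.83 and 8.68 at RA 6 hpf and at 2.85 and 0.66 at RA 4 hpf, at least 11.0-fold higher, and at or below background on all 4 untreated arrays. rarga, another RA receptor gene, went the other way, at 5.26 and 4.89 at RA 6 hpf and 7.33 and 6.98 at RA 4 hpf, at least 3.61-fold lower. Of these genes nr2f5 thus had its RA 6 hpf level above background where no untreated array was, while rarga was at or below background at 6 hpf in both treatments. The Rxr gene rxrga was called higher with 1 of 2 RA 6 hpf arrays above background, and the receptor genes rarab, rxrba and rxrbb, above background on all 4 arrays, were not called.

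Genes of the Cyp26 enzymes that remove RA, cyp26a1 and cyp26b1, were higher at RA 6 hpf, and so was dhrs3a. cyp26a1 was at 12.10 and 12.11 on the RA 6 hpf arrays and at 10.70 and 11.77 on the RA 4 hpf arrays, 1.83-fold higher (adjusted p = 0.021), and in untreated embryos at 10.32 and 10.22 at 6 hpf and 9.21 and 9.36 at 4 hpf. cyp26b1 was at 8.10 and 7.13 at RA 6 hpf and at 1.93 and 2.96 at RA 4 hpf, at least 4.96-fold higher. dhrs3a, whose product turns retinaldehyde back into retinol, was at 7.97 and 6.78 at RA 6 hpf and at 2.43 and -0.62 at RA 4 hpf, at least 4.21-fold higher. The stage change of cyp26a1 was alike in size with RA and without (0.87 ± 0.26 and 0.98 ± 0.26 SE, difference -0.11), and the other 2 genes were at or below background on all 4 untreated arrays. Of the 4 probe sets of cyp26b1 2 were called higher.

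Among genes of RA synthesis, aldh1a2, the main RA-producing enzyme gene of the gastrula, was at 7.69 and 6.79 on the RA 6 hpf arrays and at 3.54 and 2.96 on the RA 4 hpf arrays, at least 3.82-fold higher (adjusted p = 3.33e-05), against 10.03 and 9.98 at 6 hpf and 4.02 and 4.37 at 4 hpf in untreated embryos. The difference between its stage changes did not pass the threshold (adjusted p = 0.486), and at 4 hpf it was at or below background in both treatments. dhrs9, a retinol dehydrogenase family gene, rose at least 2.2-fold and rdh10b 1.53-fold (adjusted p = 0.047). crabp2b, an intracellular RA binding protein gene, was at 10.70 and 10.78 at RA 6 hpf and at 3.94 and 6.35 at RA 4 hpf (change 5.60 ± 1.06), close to its untreated levels of 10.65 and 10.70 at 6 hpf. The vitamin A importer gene stra6 was at 5.45 and 5.32 at RA 6 hpf and at 8.07 and 7.57 at RA 4 hpf, 5.42-fold lower. Both of its RA 6 hpf arrays lay just above background, so the size of that fold is uncertain. nrip1b, a corepressor gene of nuclear receptors, fell 2.71-fold, with 8.77 and 8.19 at RA 6 hpf and 10.05 and 9.79 at RA 4 hpf, while untreated embryos had 6.61 and 6.55 at 6 hpf and 10.02 and 9.84 at 4 hpf.

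**Figure D3:**
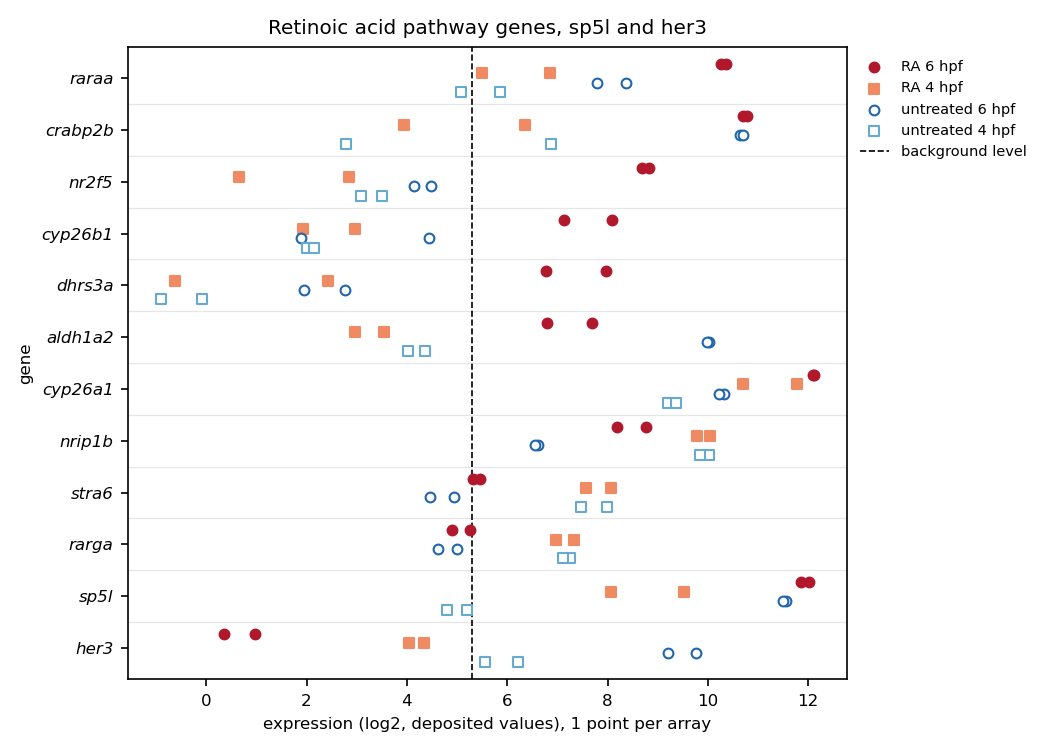
Log2 expression of 10 genes of retinoid metabolism and reception, sp5l and her3, 1 point per array, with RA 6 hpf and RA 4 hpf filled and untreated 6 hpf and untreated 4 hpf open. The dashed line is the background level of 5.302. her3 is at or below it on all 4 RA arrays and above it on all 4 untreated arrays.

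Most of the stage change was common to embryos with RA and without. In untreated embryos 2967 probe sets were called higher at 6 than at 4 hpf, 19.1%, and 3242 lower, 20.9%. Of the probe sets called higher with RA 2444 were also called higher without, which is 74.3% of the calls with RA and 82.4% of those without. Of the probe sets called lower with RA 2548 were shared, 85.3% of the calls with RA and 78.6% of those without. Across the 6360 probe sets with a mean above 7 the changes with RA and without correlated at 0.958, and across all 15502 at 0.822. The comparisons share no array, but the probe sets are not independent, and the replicate deviations of the RA 4 hpf and untreated 4 hpf arrays were themselves correlated (0.731).

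The difference between the stage changes passed the threshold for 1 probe set, 0.00645% of those tested, with 819 at an unadjusted p under 0.05. That count was 27 without RA 4 hpf array 2, 6 without untreated 4 hpf array 1 and 3 without array 1 of RA 4 hpf or array 2 of untreated 4 hpf, and other settings gave 0 to 23. The 23 came with a block for the replicate number at 4 hpf, chosen after seeing the data. The main model has no such block, though same-numbered RA and untreated arrays of 4 hpf deviated alike (correlation 0.731). The 1 probe set of the main model was of her3, a Hairy/E(spl) repressor gene of the neural plate. her3 was at 0.36 and 0.98 on the RA 6 hpf arrays and at 4.34 and 4.03 on the RA 4 hpf arrays, all at or below background, with no fold for that reason, and at 9.77 and 9.20 on the untreated 6 hpf arrays and 6.21 and 5.55 on the untreated 4 hpf arrays. It changed by -3.52 ± 0.39 with RA (adjusted p = 0.000102) and by 3.60 ± 0.39 without, a difference of -7.13 ± 0.55 (adjusted p = 0.00177). The arrays of the 4 groups do not overlap, and the other probe set of her3 was at or below background on all of them. When the model held the 8 arrays of 4 and 6 hpf alone the difference had an adjusted p of 0.122, and with 32 added to the linear values its size was -3.61.

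**Figure D4:**
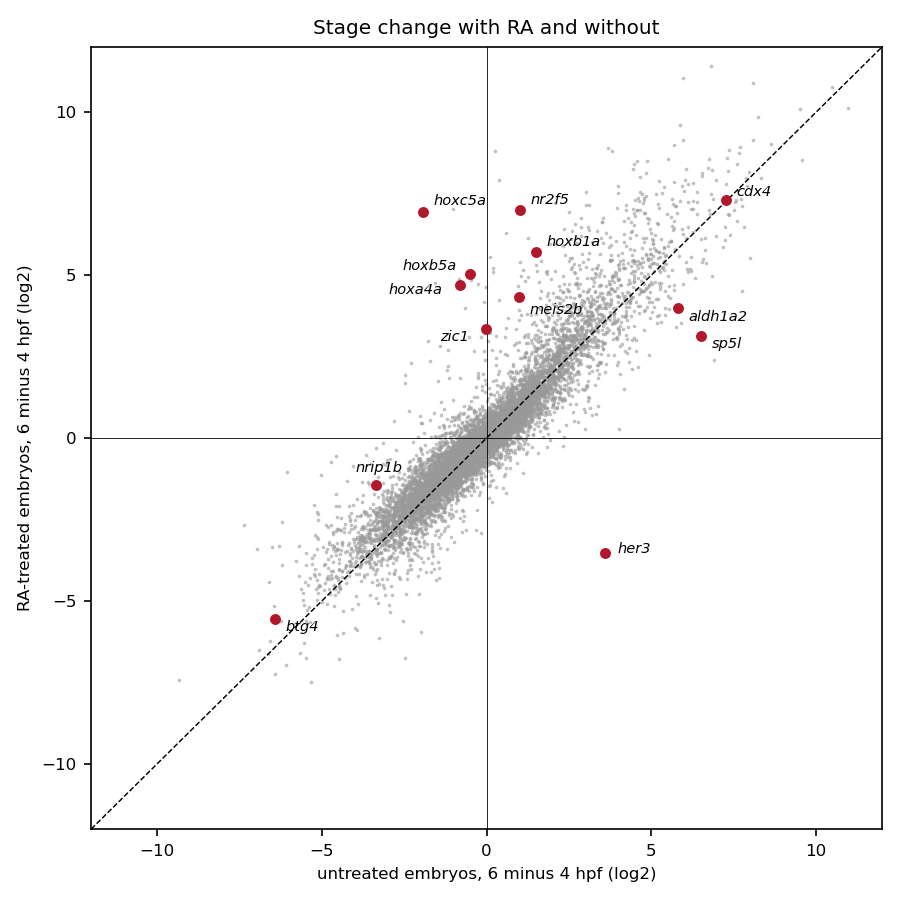
Stage change from 4 to 6 hpf in untreated embryos (x axis) and in RA-treated embryos (y axis), log2, for the 10334 probe sets above background on both arrays of 1 or more of the 4 groups. Most points follow the dashed line of equal change; her3 is alone among the marked genes in the lower right, and hoxc5a, hoxb5a, hoxa4a, nr2f5 and zic1 lie above the line.

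The genes that follow did not pass the threshold for the difference in the model of 12 arrays. sp5l, a Wnt target gene of the Sp family, was at 12.01 and 11.86 on the RA 6 hpf arrays and at 8.06 and 9.52 on the RA 4 hpf arrays, 8.84-fold higher. In untreated embryos it was at 11.56 and 11.49 at 6 hpf and at 4.81 and 5.20 at 4 hpf, so the groups lay closer at 6 than at 4 hpf (adjusted p of the difference = 0.0774), with both untreated 4 hpf arrays at or below background. zic1, a zinc finger gene of the neural plate, was at 8.87 and 8.68 at RA 6 hpf and 5.04 and 5.80 at RA 4 hpf, against 5.49 and 5.38 at 6 hpf and 5.53 and 5.36 at 4 hpf without RA (difference 3.36 ± 0.41, adjusted p = 0.0655). Its levels in untreated embryos were alike at both stages and RA 6 hpf stood above them all. The adjusted p of the difference was 0.0718 for hoxc5a and 0.0774 for nr2f5, hoxb5a and hoxb1a. These genes were at or below background on all 4 untreated arrays and on at least 1 RA 4 hpf array, so the sizes of their differences are not given. Of the calls in opposite directions 9 probe sets were higher with RA and lower without, and 2, her3 and acvrl1, were lower with RA and higher without. Of the 9, 5 were above background on both arrays of 1 or more of the 4 groups, and of the 2 only her3 was. acvrl1 was at or below background on all 8 arrays. mpped2, singled out after its values were seen, had the widest difference of the 3 genes called in opposite directions and above background on all 8 arrays. It was at 10.30 and 10.25 at RA 6 hpf and 7.84 and 7.33 at RA 4 hpf, and at 6.06 and 6.16 at 6 hpf and 7.77 and 6.77 at 4 hpf without RA (difference 3.85 ± 0.56, adjusted p = 0.0774).

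Among 22 genes of the hindbrain and the TALE partners of Hox proteins, 11 were higher at RA 6 hpf and 2 lower. The 11 include cdx4, which is also counted in the ventral list and in that of Fgf and Wnt targets. The shares over all genes were 20.2% higher and 24.5% lower. In untreated embryos 8 of the 22 genes were called higher and 0 lower. meis2b, a TALE homeobox gene, was at 9.17 and 8.79 on the RA 6 hpf arrays and at 4.40 and 4.92 on the RA 4 hpf arrays, at least 12.8-fold higher, and at or below background on all 4 untreated arrays. meis1b was at 8.40 and 7.92 at RA 6 hpf and at 0.02 and 3.70 at RA 4 hpf, at least 7.25-fold higher, and likewise at or below background without RA. The Iroquois gene irx1b was at 10.44 and 10.35 at RA 6 hpf and at 5.55 and 7.89 at RA 4 hpf, 12.8-fold higher. Without RA it was at 8.61 and 8.76 at 6 hpf and at or below background at 4 hpf, at least 10.4-fold higher at 6 hpf. gbx2, a gene of the midbrain-hindbrain boundary, was at least 2.1-fold lower at RA 6 hpf and irx1a at least 1.07-fold lower.

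Anterior neural and eye genes were higher in 11 of 32 cases (34.4%) and lower in 4 (12.5%), against 20.2% and 24.5% over all genes. Of the 32, 15 were at or below background at both stages, among them 2 of the 11 called higher and 1 of the 4 called lower. otx2a, a head-specifying homeobox gene, was at 7.41 and 7.13 on the RA 6 hpf arrays and at or below background on both RA 4 hpf arrays, at least 3.91-fold higher. Its relative otx1 was at 7.58 and 7.19 at RA 6 hpf and at 10.47 and 10.02 at RA 4 hpf, 7.24-fold lower. The secreted Wnt antagonist gene sfrp1a was at 10.87 and 10.79 at RA 6 hpf and at 6.62 and 9.34 at RA 4 hpf, 7.23-fold higher. otx2a was also called higher and otx1 lower without RA. The midbrain repressor gene her5 was 3.52-fold lower and emx3 at least 1.67-fold lower. Of 21 SoxB1 and pluripotency genes 8 rose (38.1%) and 2 fell (9.52%). sox2 was at 8.79 and 7.27 at RA 6 hpf and at -0.22 and 1.12 at RA 4 hpf, at least 6.62-fold higher. Of the 3 probe sets of sox2 2 were called higher. sox19b, the SoxB1 gene supplied by the mother, was 3.45-fold lower and nanog, a regulator of genome activation, 3.04-fold lower. sox19a rose 5.83-fold and foxd5 4.94-fold. Without RA 4 hpf array 1 or either RA 6 hpf array 5 of the 8 rises were left.

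Of 31 mesoderm and tailbud genes 20 were called higher (64.5%) and 1 lower (3.23%), both with RA and without. Over all genes 20.2% were called higher and 24.5% lower with RA. foxc1a, a forkhead gene of paraxial mesoderm, was at 9.63 and 9.02 on the RA 6 hpf arrays and at 3.21 and 0.90 on the RA 4 hpf arrays, at least 16.3-fold higher. msgn1, which drives presomitic mesoderm formation, was at 9.72 and 8.86 at RA 6 hpf and at 2.19 and 3.44 at RA 4 hpf, at least 15.9-fold higher, against 10.98 and 10.84 at 6 hpf without RA. tbx16, a T-box gene of the same tissue, was at 11.08 and 11.29 at RA 6 hpf and at 6.27 and 9.80 at RA 4 hpf and was not called (change 3.15 ± 1.23, adjusted p = 0.0657). Its RA 4 hpf arrays lay 3.53 apart. evx1 was at least 2.53-fold lower at RA 6 hpf. The median change of the list was 2.60 with RA and 2.91 without. With values at or below background raised to that level the medians were 1.39 and 1.99.

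Of 14 endoderm genes 9 rose (64.3%) and 2 fell (14.3%), against 20.2% and 24.5% over all genes. Of the 9 rises 1 was of a gene at or below background at both stages. gata5 was at 9.72 and 9.80 on the RA 6 hpf arrays and at 0.90 and 5.12 on the RA 4 hpf arrays, at least 22-fold higher, and its relative gata6 rose at least 18.5-fold. sox32, the Sox gene needed for endoderm, was at 10.84 and 11.11 at RA 6 hpf and at 4.84 and 5.67 at RA 4 hpf (change 5.72 ± 0.42, with 1 of 2 RA 4 hpf arrays above background). The fall of eomesa, a T-box gene supplied by the mother, was 9.70-fold, and mxtx2, which specifies the yolk syncytial layer, was at 4.95 and 6.02 at RA 6 hpf and at 8.64 and 9.04 at RA 4 hpf. Among 25 organizer and Nodal genes 15 rose (60.0%) and 1 fell (4.0%). Of the 15 rises 1 was of a gene at or below background at both stages. The LIM homeobox gene lhx1a was at 9.79 and 9.81 at RA 6 hpf and at 6.26 and 6.28 at RA 4 hpf, 11.5-fold higher with all 3 of its probe sets called. foxa2 rose at least 9.74-fold, gsc, the organizer gene goosecoid, 5.02-fold (adjusted p = 0.0164), and the signal transducer gene smad2 was 3.33-fold lower. The 15 rises of the organizer list became 7 without RA 4 hpf array 1, 10 without RA 6 hpf array 1, where the falls became 2, and 7 without RA 6 hpf array 2, and RA 4 hpf array 2 lay nearer to 6 hpf than array 1 for all 16 genes called.

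Of 31 ventral, BMP and epidermal genes 23 were called higher (74.2%) and 0 lower, against 20.2% and 24.5% over all genes. Their median change was 2.51, or 2.14 with values at or below background raised to that level. bmp4, a ventral signal, was at 9.46 and 9.42 on the RA 6 hpf arrays and at 2.91 and 3.74 on the RA 4 hpf arrays, at least 17.6-fold higher. ved, a ventral homeobox gene, was at 10.84 and 10.94 at RA 6 hpf and at 1.98 and 7.07 at RA 4 hpf (change 6.37 ± 1.81, adjusted p = 0.0172). Both RA 4 hpf arrays of bmp4 were at or below background, and those of ved lay 5.09 apart, on either side of background. gata2a, a GATA gene of the ventral ectoderm and blood, was above background on all 4 arrays and rose 8.08-fold.

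The enveloping layer and keratin list had 25 of 33 genes higher (75.8%) and 1 lower (3.03%), against 20.2% and 24.5% over all genes. Of the 25 genes 1 was at or below background at both stages. Its median change of 3.64 was the highest of the 24 lists, which were chosen with earlier results of these data known. anxa1b was at 9.30 and 9.10 on the RA 6 hpf arrays and at 3.37 and 2.60 on the RA 4 hpf arrays, at least 14.9-fold higher. krt5 was at 11.80 and 11.66 at RA 6 hpf and at 3.43 and 6.22 at RA 4 hpf (change 6.91 ± 0.77). krt4 was at 12.33 and 12.15 at RA 6 hpf and at 4.66 and 8.91 at RA 4 hpf (change 5.45 ± 1.41, adjusted p = 0.0108). For both keratins RA 4 hpf array 2 was above background and array 1 below it. epcam, an epithelial adhesion gene already high at 4 hpf, was 1.47-fold lower, with 1 of its 2 probe sets called lower. The 25 rises became 16 and the fall 0 without RA 4 hpf array 1, and the fall was 0 without RA 6 hpf array 1 too. In the yolk syncytial layer list 10 of 22 genes rose (45.5%) and 1 fell (4.55%). Among the rises was apoc2, at 9.18 and 9.59 at RA 6 hpf and at 1.03 and 1.16 at RA 4 hpf, at least 16.9-fold higher. Those 10 became 6 without RA 4 hpf array 1. In whole embryos fewer cells of a type and less RNA per cell cannot be told apart, here and throughout.

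**Figure D5:**
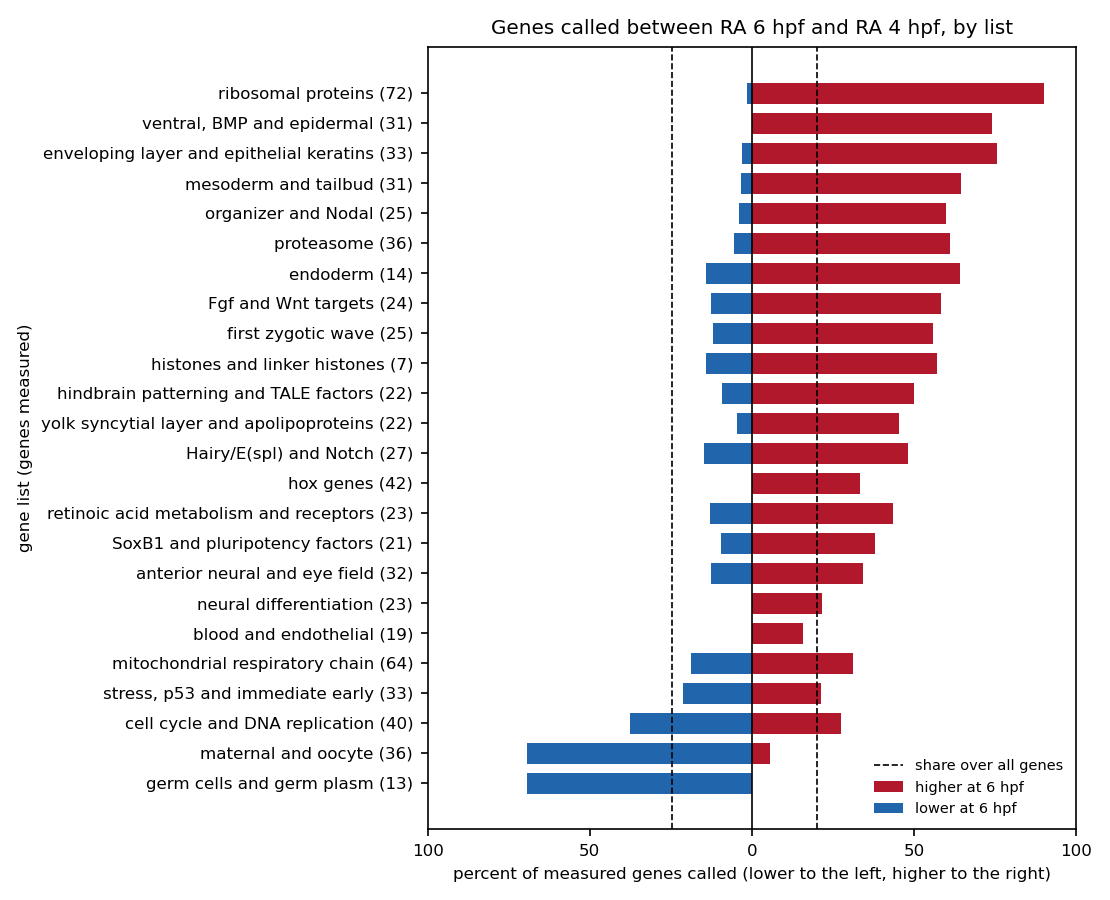
Share of measured genes called between RA 6 hpf and RA 4 hpf in each of 24 gene lists, with percent higher to the right of 0 and percent lower to the left, and the number of genes measured in brackets. A gene can be in several lists. Dashed lines show the shares over all 8793 genes, 20.2% higher and 24.5% lower; the maternal and germ cell lists extend to the left and the ribosomal list farthest to the right.

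Maternal transcripts were lower at 6 hpf with RA and without. Of 36 maternal and oocyte genes 25 were called lower at RA 6 hpf (69.4%) and 2 higher (5.56%), against 24.5% and 20.2% over all genes. In untreated embryos 27 of them were lower and 1 higher. Their median change with RA was -1.96. The 2 exceptions with RA were the cold shock domain gene ybx1, 2.02-fold higher, and magoh, a gene of the exon junction complex, 1.32-fold higher. Of these 2 genes 1 was left without either RA 6 hpf array, and of the 2 probe sets of ybx1 1 was called higher. Of 13 germ cell and germ plasm genes 9 fell (69.2%) and 0 rose. Among them dazl, an RNA binding protein gene of germ cells, was at 5.81 and 6.51 at RA 6 hpf and at 9.17 and 8.86 at RA 4 hpf, 7.22-fold lower. tdrd6a, a Tudor domain gene of the germ plasm, was 6.46-fold lower. RA 4 hpf array 2 was nearer to 6 hpf than array 1 for 26 of the 27 maternal genes called and for all 9 germ cell genes. h1m, the linker histone of the egg, was at 10.62 and 11.06 at RA 6 hpf and at 13.23 and 13.07 at RA 4 hpf, 4.97-fold lower. In the list of histones and linker histones, with 7 genes measured, 4 were called higher (57.1%) and 1 lower (14.3%). Of 25 genes of the first zygotic wave 14 rose and 3 fell, and the rises became 9 without RA 4 hpf array 1 or either RA 6 hpf array. Over all genes 20.2% rose and 24.5% fell with RA. In untreated embryos 13 of these 25 genes were called higher and 2 lower. cldne, a claudin gene of the first zygotic wave list, rose at least 8.79-fold with RA.

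Of 27 Hairy/E(spl) and Notch genes 13 rose (48.1%) and 4 fell (14.8%), against 20.2% and 24.5% over all genes. notch3 was at 9.44 and 9.05 on the RA 6 hpf arrays and at 4.47 and 5.01 on the RA 4 hpf arrays, at least 15.4-fold higher. her8a rose 11.8-fold, with 1 of its 2 probe sets called higher, and the Notch ligand gene jag2b was 5.61-fold lower. Of 24 Fgf and Wnt targets and ligands 14 rose (58.3%) and 3 fell (12.5%), and the falls became 1 without RA 6 hpf array 2. The Ets factor gene etv4, a target of Fgf signals, was at 10.05 and 9.89 at RA 6 hpf and at 6.13 and 7.71 at RA 4 hpf, 8.28-fold higher, while its relative etv5a was 2.94-fold lower. fgf8a was at 8.94 and 9.17 at RA 6 hpf and at 1.88 and 5.60 at RA 4 hpf (change 5.31 ± 1.16).

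Neural differentiation genes were mostly near background, with 12 of 23 at or below it at both stages and 5 called higher, 21.7% against 20.2% over all genes. Of the 5, 1 was at or below background at both stages. The 5 became 3 without RA 6 hpf array 2. insm1b, a zinc finger gene of nascent neurons and endocrine cells, was at 10.44 and 10.64 on the RA 6 hpf arrays and at 6.66 and 8.19 on the RA 4 hpf arrays, 8.64-fold higher, against 5.02 and 5.34 at 6 hpf and 4.51 and 4.73 at 4 hpf without RA. The Delta genes dlb (at least 2.49-fold) and dla (at least 2.1-fold) rose as well. Blood and endothelial genes, which embryos of these stages should lack, were at or below background at both stages in 17 of 19 cases, and gata2a, a gene of other tissues too, was the only one of the list above it on both RA 6 hpf arrays. The list had 3 genes called higher (15.8%) and 0 lower: gata2a, and kdrl and tek, receptor genes of endothelium that were at or below background on all 4 RA arrays. The 3 became 1 without RA 6 hpf array 1 or RA 4 hpf array 2, and 2 genes were called lower without RA 6 hpf array 1.

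Of 72 ribosomal protein genes 65 were higher at RA 6 hpf (90.3%) and 1 lower (1.39%), against 20.2% and 24.5% over all genes. Without RA 67 of the 72 were higher and 2 lower. All 72 were above background on all 4 RA arrays, and the median change with RA was 0.93. rplp2, of the ribosomal stalk, was at 10.44 and 10.27 on the RA 6 hpf arrays and at 7.77 and 8.11 on the RA 4 hpf arrays, 5.34-fold higher (limma adjusted p = 9.01e-06). rps6 rose 4.14-fold, faua 5.53-fold and rps26l 5.81-fold, while faub, the paralog of faua, was 1.68-fold lower. Paralogs of near-identical sequence may share signal between probe sets. Of 36 proteasome genes 22 rose (61.1%) and 2 fell (5.56%). The catalytic subunit gene psmb6 was at 10.01 and 9.72 at RA 6 hpf and at 7.03 and 6.76 at RA 4 hpf, 7.85-fold higher. psmd10, an assembly factor gene, was 4.37-fold lower. The 2 proteasome falls became 1 without either RA 4 hpf array or RA 6 hpf array 1. The 64 respiratory chain genes were split, with 20 higher (31.25%) and 12 lower (18.75%). Among the 20 were ndufs6 of complex I (5.55-fold) and ndufa5 (5.32-fold), and among the 12 atp5f1c of the ATP synthase (2.31-fold). The 12 became 4 without RA 4 hpf array 1, 8 without RA 4 hpf array 2, 3 without RA 6 hpf array 1 and 7 without RA 6 hpf array 2.

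Of 40 cell cycle and replication genes 11 were higher (27.5%) and 15 lower (37.5%), against 20.2% and 24.5% over all genes. mcm3, a subunit of the replicative helicase, was at 11.14 and 11.16 on the RA 6 hpf arrays and at 7.08 and 9.01 on the RA 4 hpf arrays, 8.63-fold higher. ccnd1, the G1 cyclin gene, was at 12.19 and 11.99 at RA 6 hpf and at 8.50 and 11.00 at RA 4 hpf, 5.05-fold higher (adjusted p = 0.0361). Of the 2 probe sets of ccnd1 1 was called higher. birc5b, a survivin gene, was at 7.39 and 7.85 at RA 6 hpf and at 11.69 and 11.07 at RA 4 hpf, 13.5-fold lower. The mitotic cyclin gene ccnb2 was 4.21-fold lower, ccna1 3.92-fold lower and the replication gene gins2 6.65-fold lower. The 11 rises became 4 without RA 4 hpf array 1, 6 without RA 6 hpf array 1 and 4 without RA 6 hpf array 2. In the stress and p53 list 7 of 33 rose and 7 fell, shares near those over all genes: hspb1, a small heat shock protein gene, rose 7.75-fold, while hspa5, the chaperone of the endoplasmic reticulum, was 3.72-fold lower and casp8 at least 5.78-fold lower. The 7 falls of that list became 3 without RA 6 hpf array 1 and 4 without RA 4 hpf array 1.

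The RA 4 hpf arrays were not equally far from 6 hpf. Array 2 correlated with the RA 6 hpf arrays at 0.829 and 0.843, and array 1 at 0.779 and 0.795. Among probe sets with a mean above 7, array 2 was the nearer to 6 hpf for 1369 of 1910 called higher (71.7%) and 1196 of 1654 called lower (72.3%), with a median array difference of 0.25 for those called higher, against a median change of 1.33. The untreated 4 hpf arrays were split alike, with array 2 nearer for 77.0% and 79.9%. At RA 6 hpf array 2 was the higher for 33.8% of the probe sets called higher and the lower for 35.2% of those called lower. In the hox list array 2 was the nearer for 12 of the 14 genes called.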

How the data were processed

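The deposited table holds 1 log2 value for each probe set and array. The authors produced it with the function expresso of the R package affy, with mas5 as background correction and invariantset as normalization (version 2.15.2 in the submitters' processing notes). How probes were summarised and the log base are not stated in the sources used here; the range, -5.30 to 13.9, is that of logarithms and base 2 was assumed. The study's present calls were not used. The number of arrays limits the precision.

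The 115 control probe sets of 15617 were left out and 15502 were tested. Symbols came from the platform annotation, updated through gene IDs: 10795 probe sets carry 1 gene, 135 several and 4572 none, standing for 8793 genes. A gene in a list was taken by the probe set whose embryo array mean was highest. The background level was the 95th percentile of 17 tag control probe sets over 14 arrays (238 values).

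limma 3.58.1 in R 4.3.3 was given the 12 embryo arrays with 1 mean for each of 6 groups, and moderated variances by empirical Bayes along an intensity trend. All p-values are two-sided, with Benjamini-Hochberg adjustment over 15502 probe sets and a threshold of 0.05. The difference between stage changes was a contrast in the same model. The script was tested on simulated data. Alternatives were other normalizations, a filter on background, a pseudocount, fewer arrays, a replicate block and leaving out each array. Replicate numbers did not pair RA 6 hpf with RA 4 hpf arrays.

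Named genes were, among called probe sets with 1 gene and no overlap of arrays, the 10 largest rises and falls measured on all 4 arrays, the 12 highest bounds each way, up to 4 list members each way, all hox and RA genes called, calls of the difference, and stage markers; code names were passed over. Members and lists were chosen with earlier results of these data known. Some genes, among them cdx4, ved, mxtx2, her5 and buc, are in several lists and are counted in each. List entries that matched unrelated genes (kinases named after a ribosomal protein, a synonym) were removed by identity and not by value.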

Additional observations from a re-analysis of the deposited data

Results flagged for a closer look

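her3 was picked out because its stage change with RA differed from that without RA in the test of the difference itself. The difference was -7.13 ± 0.55 (SE, adjusted p = 0.00177, limma), from -3.52 with RA and 3.60 without. Both RA 6 hpf arrays lay below both RA 4 hpf arrays and both untreated 6 hpf arrays above both untreated 4 hpf arrays. All 4 RA arrays were at or below background, where levels of control probe sets also differed between groups, so the size of the change with RA is not a fold, and with 32 added to the linear values the difference was -3.61; the levels above background are those of the untreated arrays. The tag control medians were 2.66 and 2.69 at RA 4 hpf and 3.56 and 3.39 at RA 6 hpf. Without RA they were 2.59 and 2.21 at 4 hpf and 1.83 and 1.94 at 6 hpf. They thus rose with RA and fell without, in each case opposite to her3, and their part in the result was not tested.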

How the results depend on the processing

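The 3291 higher and 2986 lower calls became, when 1 array was left out, 2250 to 3019 higher and 1952 to 2497 lower, with 1952 without RA 4 hpf replicate 1. Under the other settings higher calls ran from 2864 (quantile normalization) to 3594 and lower calls from 2749 (no intensity trend) to 3229. The median change of all probe sets, 0.14, became -0.07 after quantile normalization, so small changes are relative to the scaling. With the replicate block 3251 were higher and 2911 lower. The check of pairing gave a correlation of deviations of 0.001 between RA 6 hpf and RA 4 hpf. For the difference between stage changes, 1 call became 0 with only the 8 arrays of 4 and 6 hpf, 3 after quantile normalization, 2 with a filter on background, 9 with log2(value + 32), 12 without the intensity trend and 23 with a replicate block at 4 hpf only, chosen after seeing the data; leaving out 1 array gave 1 to 27, the highest without array 2 of RA 4 hpf. The replicate block gave 1. her3 (-7.13) lost the threshold with only the 8 arrays (adjusted p = 0.122) and kept it in all other settings, with adjusted p up to 0.0327, but its size was -3.61 with log2(value + 32). For hox genes 0 lower calls became 1 with log2(value + 32), hoxc11a, and 0 to 1 when 1 array was left out; the higher calls were 10 to 16. Among 174 named genes none reversed; the threshold was lost by 26 and 8 when array 1 or array 2 of RA 4 hpf was left out, and by 24 and 21 when array 1 or array 2 of RA 6 hpf was. With 1 array left in a group, that array is assumed to vary like the other groups.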
